A study of Mus musculus with 12 samples.

Results

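The genes described here carry amino acids, and a few related small molecules, across cell membranes. They are all genes whose annotated symbol places them in the Slc1, Slc3, Slc6, Slc7, Slc36, Slc38 or Slc43 family of solute carriers. The adult arrays measured 64 of them among 19938 genes, and the arrays of newborn ovaries, taken at postnatal day 3 (P3), measured 63 among 18194 genes. Of 65 genes in all, 62 were on both arrays, Slc38a8 and Slc38a11 were measured in adults alone, and Slc36a1os was measured at P3 alone. The symbol rule also takes in genes that are not amino acid carriers. Slc6a19os, Slc7a6os and Slc36a1os are neighbours named after the transporter on the opposite strand, Slc6a2, Slc6a3 and Slc6a4 carry monoamines, and Slc6a8 carries creatine. They were kept in every count.

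Arrays measured total RNA of mouse gonads in the presence or loss of Foxl2, a forkhead transcription factor of granulosa cells, the somatic cells of the follicle. Adult arrays covered 3 ovaries labelled Foxl2 mutant and given as Foxl2 flox/flox x CreEBD, a floxed gene combined with a Cre transgene, 3 wild-type testes and 2 wild-type ovaries, each from a single animal at 8 weeks. The P3 set held 2 arrays of Foxl2 knockout (KO) ovaries and 2 of wild-type ovaries, each made from a pool of more than 10 females. The labels give no promoter for the Cre, no time at which the floxed gene was deleted and no strain, and whole ovaries hold many cell types.

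Transporters of these families differ in what they carry and in what drives them. Slc7 light chains reach the surface bound to an Slc3 heavy chain and exchange one amino acid for another, while Slc7 carriers of the cationic group take up arginine and lysine on their own. Slc1, Slc6 and Slc38 proteins use the sodium gradient, some Slc36 proteins use protons, and Slc43 proteins need neither. In the mouse follicle, cumulus granulosa cells take up amino acids that the oocyte cannot take up well itself and pass them on through gap junctions, and Slc38a3 is a known carrier of that route. Mouse oocytes and early embryos use the glycine carrier Slc6a9 to set their volume. When amino acids run short, cells translate the transcription factor ATF4, which binds amino acid response elements in genes for transporters and for asparagine and serine synthesis.

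The core of that element was searched for at the starts of the transporter genes, since the elements are a known route by which several of them are switched on. Promoter windows of 300 bases, 250 before and 50 after the start, came from RefSeq on build GRCm38.p6 and were matched for 48 of the 65 genes, with 69 windows. TTGCATCA, read on both strands, stood in 4 of the 69 windows (5.8%), against 294 of 32851 windows of all genes (0.895%). The 4 windows belonged to Slc1a4, Slc7a11 and Slc7a7, and those of Slc7a7 overlap and hold the same site. The sequences show the windows 5′ to 3′ on the gene's strand, all of them the minus strand, at chr11:20332664-20332963 for Slc1a4, chr14:54417895-54418194 for Slc7a7 and chr3:50443564-50443863 for Slc7a11, with the matches in capitals.
Slc1a4: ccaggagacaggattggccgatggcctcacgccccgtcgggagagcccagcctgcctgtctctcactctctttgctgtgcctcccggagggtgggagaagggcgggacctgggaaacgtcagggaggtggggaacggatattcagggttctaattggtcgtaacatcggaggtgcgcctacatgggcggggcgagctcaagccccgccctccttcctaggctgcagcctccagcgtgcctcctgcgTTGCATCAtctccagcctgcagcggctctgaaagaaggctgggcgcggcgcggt
Slc7a7: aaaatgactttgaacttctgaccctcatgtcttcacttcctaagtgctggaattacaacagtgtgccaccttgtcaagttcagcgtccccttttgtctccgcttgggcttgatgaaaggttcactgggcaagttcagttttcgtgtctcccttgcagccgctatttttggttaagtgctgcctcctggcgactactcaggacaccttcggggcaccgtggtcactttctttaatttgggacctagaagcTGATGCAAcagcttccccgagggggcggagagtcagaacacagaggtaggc
Slc7a11: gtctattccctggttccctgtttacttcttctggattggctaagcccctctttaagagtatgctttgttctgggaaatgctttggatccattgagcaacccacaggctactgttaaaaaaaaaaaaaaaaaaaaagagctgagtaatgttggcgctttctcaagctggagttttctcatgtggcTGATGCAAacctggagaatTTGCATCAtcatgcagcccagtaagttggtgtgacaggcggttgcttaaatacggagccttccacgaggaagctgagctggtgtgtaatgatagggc
Slc7a11 carries the letters once on each strand, Slc1a4 on the gene's strand and Slc7a7 on the other. These matches are descriptions of the letters, not of bound sites. In adult mutant against wild-type ovary, described in the following paragraphs, Slc1a4 was higher, Slc7a7 was lower and Slc7a11 did not pass. GTCAAGG, a sequence given for FOXL2 targets, stood in 3 of 69 windows (4.35%, in Slc36a4, Slc6a11 and Slc7a1), against 3.18% of all windows. The forkhead core TGTTTAC stood in 2 (2.9%, in Slc36a3 and Slc7a11), against 3.65%. The GC box GGGCGG stood in 35 (50.7%), against 35.7%.

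Foxl2 RNA was low in every library labelled mutant or KO. Its log2 level was 5.81, 6.04 and 5.73 in the adult mutant ovaries, 5.22 to 5.38 in the testes, and 8.76 and 8.81 in the wild-type ovaries (difference -2.92 ± 0.13, SE, limma adjusted p = 5.08e-07). The probe sets are not stated to lie in the deleted part. At P3 its signal was 186.4 and 153.7 in KO pools, against 814.5 and 829.9 in wild-type pools (-2.18 ± 0.21, limma adjusted p = 0.0238). Spermatid markers fitted the labelled tissues: all 10 lay above the array median in testes and none did in any ovary. Sertoli markers did not set testes apart from adult mutant ovaries in this way. All 9 measured ones lay above the array median in both, and 5 or 6 did in adult wild-type ovaries. Of 10 measured granulosa markers, 9 or 10 lay above it in adult mutant ovaries, 1 to 3 in testes and 10 in adult wild-type ovaries, and at P3 3 did in KO pools and 6 in wild-type pools. Across arrays the gene medians were 5.45 to 5.60 in adults (log2) and 323.6 to 335.9 at P3 (signal), and the number of arrays limits the precision. The 2 adult wild-type ovaries differed from each other in follicle markers. The mean log2 level of the 12 oocyte markers was 7.31 in wild-type ovary 1 and 5.69 in wild-type ovary 2, and that of the 7 measured steroidogenic and luteal markers was 8.72 in ovary 1 and 10.42 in ovary 2. They were more than 1 log2 unit apart in 8 of 64 transporter genes (12.5%), against 3.41% of all genes, and values without 1 of them are given beside several adult results.

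In adult mutant ovaries, the arginine carriers Slc7a1 and Slc7a2, the alanine and serine exchanger Slc1a4 and the wide-range carrier Slc6a14 were 1.33 to 2.66 log2 units higher than in wild-type ovaries, and the glutamine carrier Slc38a3 was 3.93 log2 units lower. Of the 64 genes, 14 passed between mutant and wild-type ovary at an adjusted p under 0.05 over all genes, where 16.2% of all genes passed. Slc6a14, Slc7a1, Slc1a4, Slc6a4, Slc7a2, Slc7a4, Slc1a6, Slc6a8 and Slc7a6 were higher (9 genes, 14.1%, against 9.55% of all genes), and Slc38a3, Slc6a15, Slc7a7, Slc38a10 and Slc38a11 were lower (5 genes, 7.81%, against 6.66%). The median difference of the 64 was 0.001, against -0.025 for all genes. The differences ran from -3.93 to 2.66. All mutant ovaries stood above both wild-type ovaries in 12 genes (19.3% of all genes did) and below both in 12 (20.6% of all genes did).

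Both Slc7 carriers that take up arginine and lysine in many tissues rose. Slc7a1, the widely expressed carrier CAT1, had log2 levels of 8.92, 8.83 and 9.37 in mutant ovaries, and 7.33 and 7.70 in wild-type ovaries. Every mutant ovary stood above both wild-type ovaries, by 1.52 ± 0.18 on average, or 2.88-fold (SE, limma adjusted p = 0.00024). Slc7a2, the inducible carrier CAT2, had 8.64, 8.32 and 7.91 in mutant ovaries, and 7.06 and 6.85 in wild-type ovaries. The groups were again apart, by 1.33 ± 0.19 or 2.52-fold (limma adjusted p = 0.00095). Slc7a4, a relative of these carriers for which transport is less well described, had 8.25, 7.99 and 8.57 in mutant ovaries, against 7.25 and 7.48 in wild-type ovaries. That difference was 0.90 ± 0.17, or 1.87-fold (limma adjusted p = 0.0043). The remaining carrier of this group, Slc7a3, had 3.79 to 4.29 in mutant ovaries and 3.58 to 3.96 in wild-type ovaries, which overlapped.

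Among the light chains that pair with a heavy chain, 1 rose and 1 fell (9.55% of all genes rose and 6.66% fell). Slc7a6, the light chain y+LAT2, which exchanges cationic for neutral amino acids, rose by 0.57 ± 0.15 (limma adjusted p = 0.0253), with levels of 9.27, 8.98 and 9.33 in mutant ovaries, and 8.83 and 8.41 in wild-type ovaries. Its close relative Slc7a7, y+LAT1, fell by 1.23 ± 0.24 (limma adjusted p = 0.0062), with levels of 5.28, 5.37 and 5.03 in mutant ovaries, and 5.97 and 6.93 in wild-type ovaries. Both values moved with the wild-type ovary used: without wild-type ovary 2 the difference of Slc7a6 was 0.36 and missed the threshold, and that of Slc7a7 was -0.74 and passed. Slc3a2, the heavy chain of most light chains, had 11.26, 11.03 and 11.55 in mutant ovaries, and 11.09 and 10.90 in wild-type ovaries (0.28 ± 0.14, limma adjusted p = 0.211). Slc3a1, the heavy chain of the kidney cystine carrier, did not pass either (-0.04 ± 0.14). Slc7a5, the light chain LAT1 for large neutral amino acids, had 10.86, 10.26 and 10.99 in mutant ovaries, and 10.30 and 9.88 in wild-type ovaries (0.61 ± 0.21, limma adjusted p = 0.0714). That gene passed without wild-type ovary 1 (0.82) and without mutant ovary 2 (0.83). Slc7a8, the light chain LAT2, had 9.95, 9.92 and 10.75 in mutant ovaries, and 9.86 and 9.55 in wild-type ovaries (0.50 ± 0.23, limma adjusted p = 0.187), so the groups were apart but the test was not passed. Slc7a11, the cystine and glutamate exchanger xCT, had 6.03, 6.40 and 5.88 in mutant ovaries, against 6.08 and 4.73 in wild-type ovaries (0.69 ± 0.32, limma adjusted p = 0.186). Wild-type ovary 1 lay among the mutant ovaries and wild-type ovary 2 below them, and without wild-type ovary 1 the difference was 1.37 and passed. Slc7a9 and Slc7a10, light chains of kidney and brain, stayed below the array medians, with differences of -0.02 and -0.01.

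Of the Slc1 family, 2 of 7 genes passed, both higher (9.55% of all genes were higher and 6.66% lower). Slc1a4, the exchanger ASCT1 for alanine, serine and cysteine, had 7.19, 6.80 and 7.16 in mutant ovaries, and 5.29 and 5.80 in wild-type ovaries. The mutant ovaries stood 1.51 ± 0.19 higher, or 2.84-fold (limma adjusted p = 0.00035). Slc1a6, the glutamate carrier EAAT4, had 5.56, 5.51 and 5.60 in mutant ovaries, and 4.75 and 4.66 in wild-type ovaries (0.85 ± 0.12, limma adjusted p = 0.00078). Its levels barely varied within either group. Slc1a5, the glutamine exchanger ASCT2, had 7.15, 7.18 and 7.84 in mutant ovaries, which lay between the 6.84 and 8.08 of the wild-type ovaries (-0.07 ± 0.32). Its difference was 0.55 against wild-type ovary 1 alone and -0.69 against wild-type ovary 2 alone, and neither passed.

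Of the 21 genes of the Slc6 family, 3 rose and 1 fell (9.55% of all genes rose and 6.66% fell). Slc6a14, a carrier of wide range for neutral and cationic amino acids, had log2 levels of 6.08, 6.49 and 6.73 in mutant ovaries, and 3.90 and 3.65 in wild-type ovaries. It rose by 2.66 ± 0.19 (limma adjusted p = 7.67e-06), from a wild-type level below the array median. Slc6a4, the serotonin carrier, had 6.29, 6.38 and 7.31 in mutant ovaries, and 5.50 and 4.91 in wild-type ovaries (1.46 ± 0.29, limma adjusted p = 0.0063). Slc6a8, the creatine carrier, had 7.74, 7.12 and 7.83 in mutant ovaries, and 6.87 and 6.90 in wild-type ovaries (0.68 ± 0.20, limma adjusted p = 0.0439), and this call was lost without some of the arrays. Slc6a15, a carrier of branched-chain amino acids and proline, had 3.88, 3.85 and 3.41 in mutant ovaries, and 5.42 and 4.60 in wild-type ovaries. It fell by 1.30 ± 0.25 (limma adjusted p = 0.0052), while every level lay under the array median. Slc6a6, the taurine carrier, had 8.00, 8.97 and 8.66 in mutant ovaries, and 8.99 and 10.64 in wild-type ovaries (-1.27 ± 0.40, limma adjusted p = 0.0577). Only wild-type ovary 2 stood far above the mutant ovaries, and against it alone the difference was -2.09 and passed. Slc6a9, the glycine carrier, had 8.60, 8.66 and 8.50 in mutant ovaries, between the 9.11 and 8.10 of wild-type ovaries 1 and 2 (-0.02 ± 0.23). Without wild-type ovary 1 it was higher by 0.48 and without wild-type ovary 2 lower at -0.53, and both passed.

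The largest change of all 64 genes was the fall of Slc38a3, the sodium-coupled glutamine carrier SNAT3. Its log2 level was 4.46, 3.79 and 4.22 in mutant ovaries, and 9.24 and 6.94 in wild-type ovaries. The mutant ovaries all lay under the array median and both wild-type ovaries above it, 3.93 ± 0.50 apart (limma adjusted p = 0.00044). The mutant levels were close to the mean of the spermatid markers in adult ovaries (3.80 to 4.01) and no detection call was used, so no fold is given for genes this dim. Against wild-type ovary 2 alone the difference was -2.78 and against wild-type ovary 1 alone -5.08, and it passed with each. The granulosa markers moved with it: 6 of 10 were lower in mutant ovaries and none higher, and their summed level (RMA values turned linear) was 2659 to 3505 in mutant ovaries, against 11030 in wild-type ovary 1 and 6925 in wild-type ovary 2. Foxl2 itself is 1 of these markers. Other markers also moved between mutant and wild-type ovary: 5 of 5 smooth muscle markers (summed level 1125 to 1999 in mutant ovaries and 2625 to 2985 in wild-type ovaries) and 3 of 5 endothelial markers (601.9 to 755.8 in mutant ovaries and 845.4 to 1395 in wild-type ovaries) were lower, and 3 of 7 leukocyte markers (1280 to 2139 in mutant ovaries and 828.2 to 965.1 in wild-type ovaries) were higher. All 9 measured Sertoli markers were higher (summed level 5351 to 5986 in mutant ovaries and 376.6 to 538.8 in wild-type ovaries). Of 12 oocyte markers 1 was higher and 0 lower, and of 7 steroidogenic and luteal markers 0 were higher and 1 lower. Over all genes 9.55% were higher and 6.66% lower. The part of any of these markers in the transporter results was not tested. In whole organs, fewer cells of a type and less RNA per cell cannot be told apart. The remaining Slc38 calls were small: Slc38a10 fell by 0.47 ± 0.13 (limma adjusted p = 0.0406) and Slc38a11 fell by 0.42 ± 0.11 (limma adjusted p = 0.0254), and both were lost when single arrays were left out. Levels of Slc38a11 were 2.96 to 3.05 in mutant ovaries, and 3.48 and 3.40 in wild-type ovaries. All of these lay below the spermatid marker means of 3.80 to 4.01. Slc38a1, the carrier SNAT1, had 7.58, 7.28 and 8.02 in mutant ovaries, and 8.48 and 8.35 in wild-type ovaries (-0.79 ± 0.27, limma adjusted p = 0.0767). Slc38a2, the carrier SNAT2, had 9.98, 9.96 and 10.01 in mutant ovaries, and 10.00 and 9.87 in wild-type ovaries, a difference of 0.05 ± 0.10. None of the 4 Slc36 or 3 Slc43 genes passed. Slc36a4 and Slc43a3 had differences of 0.04 ± 0.11 and 0.20 ± 0.19.

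**Figure D1:**
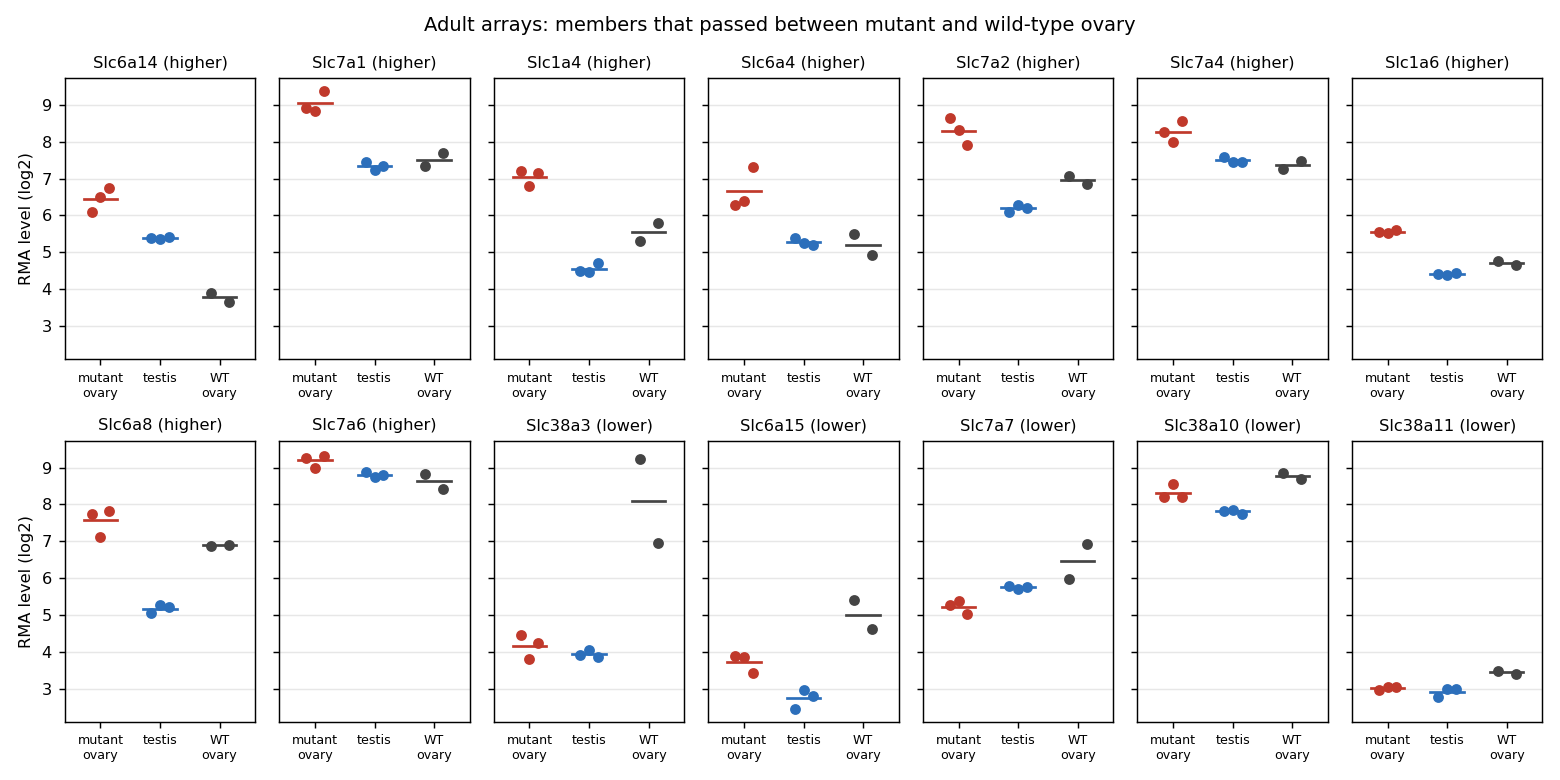
Log2 RMA level (vertical axis) of the 14 transporter genes that passed between adult Foxl2 mutant and wild-type ovary, 1 panel each; points are single animals and bars are group means of 3 mutant ovaries, 3 testes and 2 wild-type ovaries. In all 14 panels the mutant and wild-type ovaries do not overlap, and the 2 wild-type ovaries of Slc38a3 stand at 9.24 and 6.94.

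**Figure D2:**
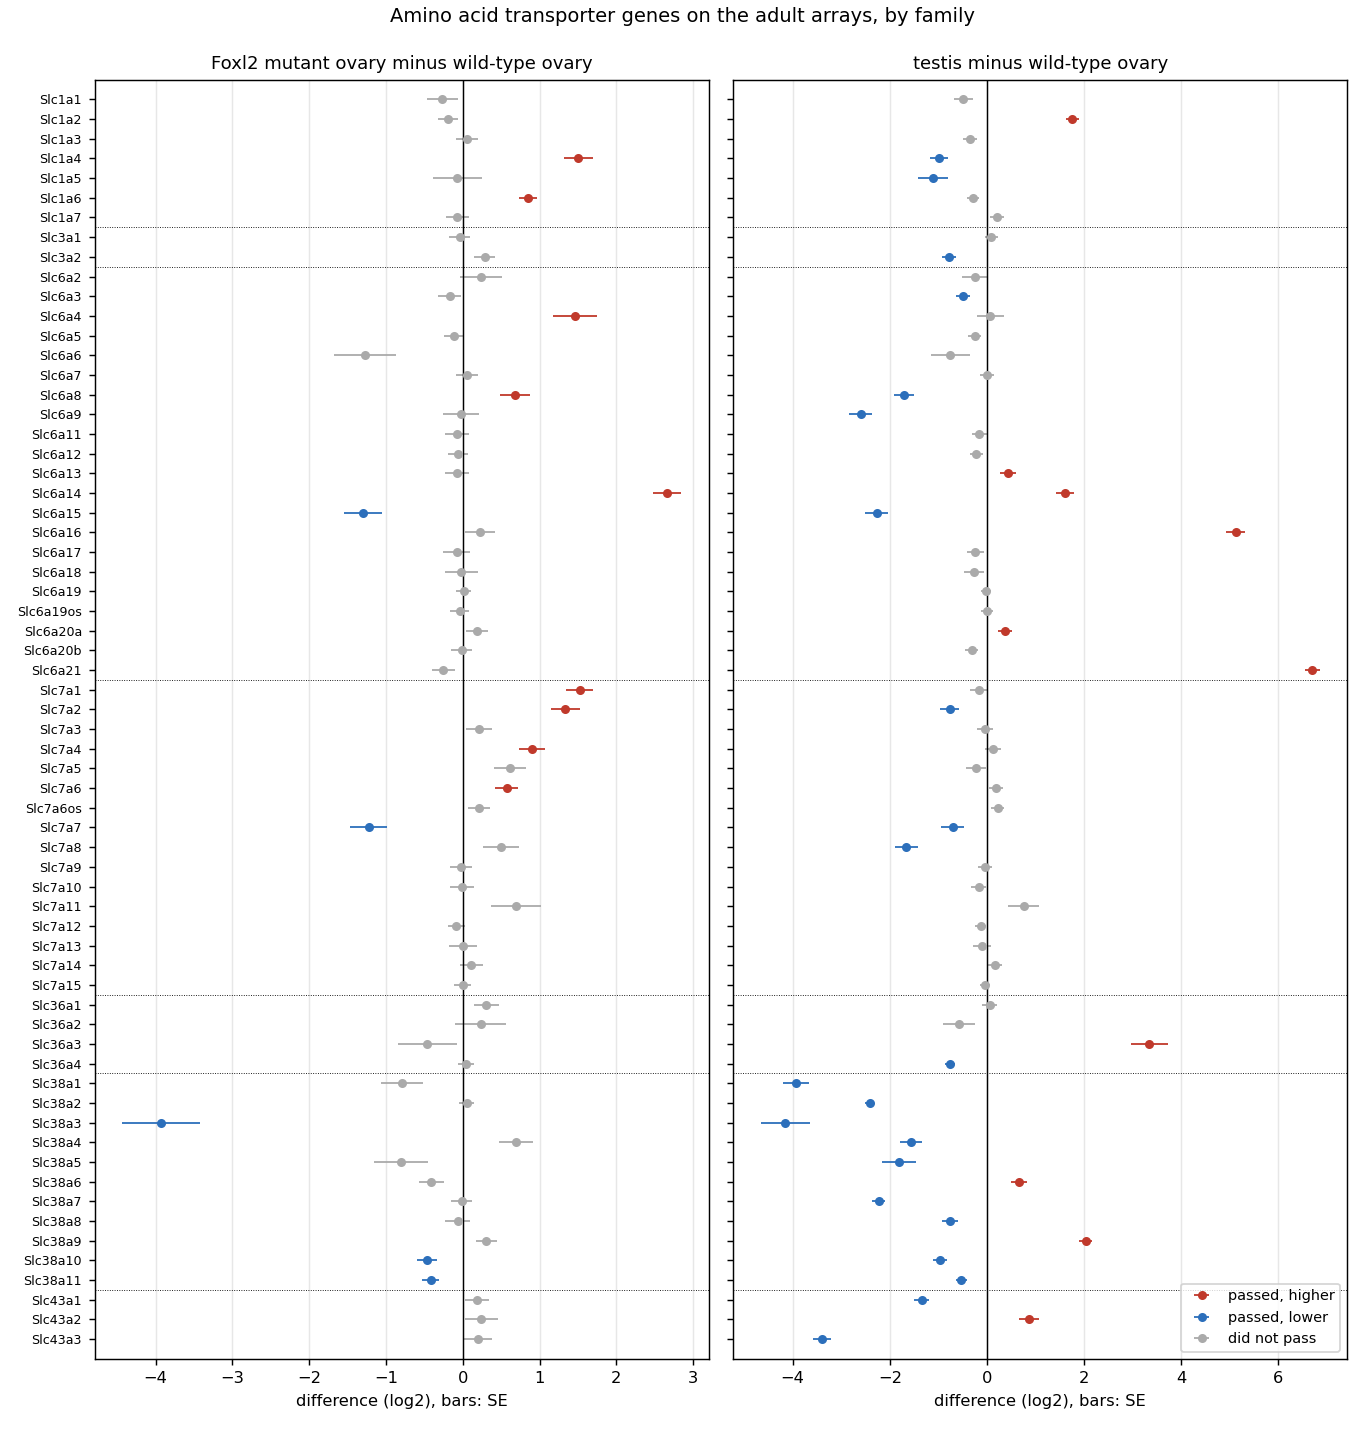
Log2 difference with its standard error (horizontal axis) for all 64 transporter genes, grouped by family, in Foxl2 mutant ovary minus wild-type ovary (left) and testis minus wild-type ovary (right); colour marks an adjusted p under 0.05. The left panel has 9 genes higher and 5 lower, the right panel 10 higher and 22 lower, and all 11 Slc38 genes passed on the right.

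Of the 14 calls, 10 were made again without each of the 8 adult arrays in turn, and the exceptions were Slc38a10, Slc38a11, Slc6a8 and Slc7a6. With quantile normalization added, 7 genes were higher and 7 lower, where 3401 of 19938 genes passed, against 3232 without it. The plot by wild-type ovary shows how far each difference depends on which of the 2 animals is used. With 1 of these animals left out a single wild-type ovary remains, so counts of genes called against each animal are not compared here. The 8 genes over 1 log2 unit apart between these animals were Slc38a3, Slc38a5, Slc6a9 and Slc7a11, with ovary 1 above, and Slc1a5, Slc36a2, Slc36a3 and Slc6a6, with ovary 2 above. Ovary 1 also had the higher oocyte and granulosa markers and ovary 2 the higher luteal markers; their part in these values was not tested.

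**Figure D3:**
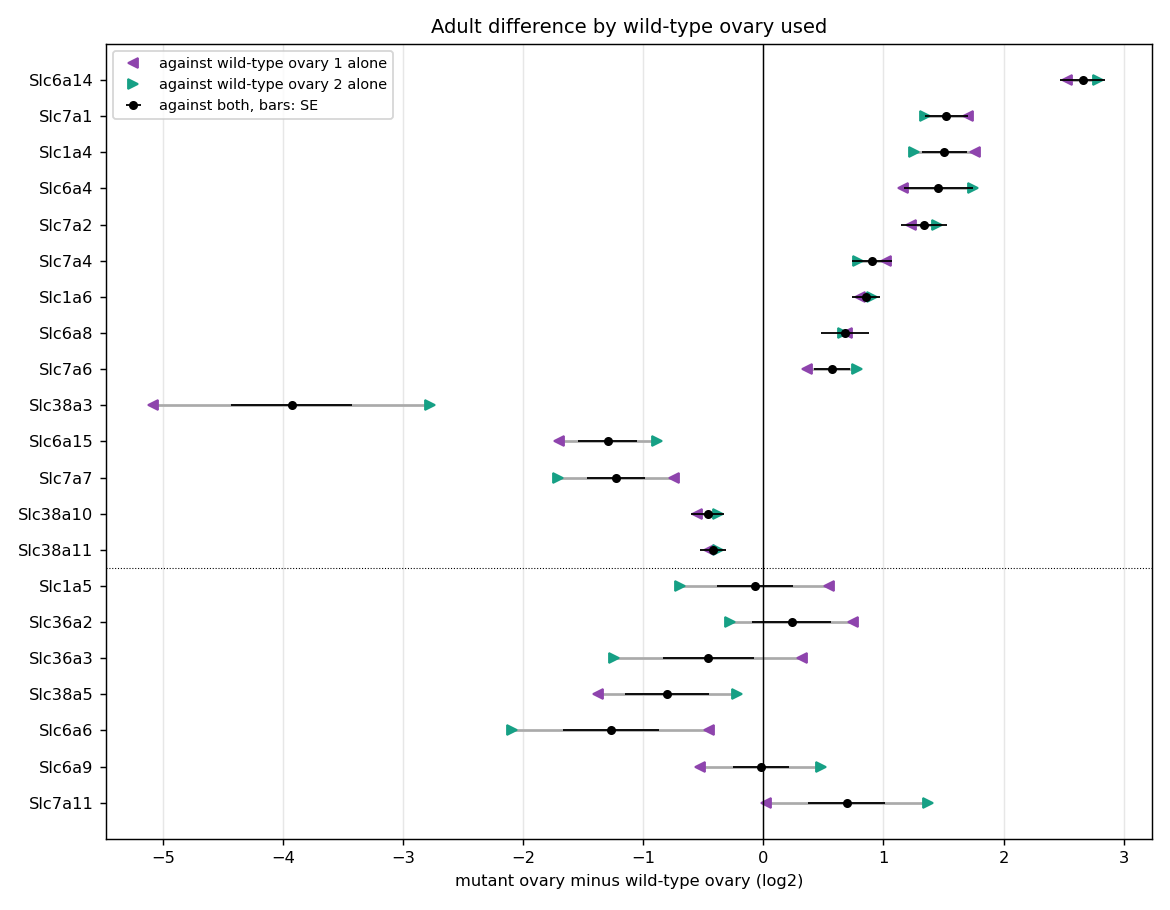
Log2 difference between the 3 adult mutant ovaries and wild-type ovary (horizontal axis) against both wild-type ovaries (black, bars are SE), ovary 1 alone (purple) or ovary 2 alone (green), for the 14 transporter genes that passed (above the dotted line) and those that did not but were over 1 log2 unit apart between the wild-type ovaries (below it). Slc38a3 spans -5.08 to -2.78, and Slc6a9 lies on either side of 0.

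Adult testes had lower levels than wild-type ovaries of 9 of 11 Slc38 carriers, and higher levels of the orphan carriers Slc6a21 and Slc6a16. In all, 32 of 64 genes passed between testis and wild-type ovary, where 60.3% of all genes did. Of these, 10 were higher in testis (24.4% of all genes were) and 22 lower (35.9% of all genes were), with a median difference of -0.23, against -0.15 for all genes. All 11 Slc38 genes passed, 9 of them lower, and all 3 Slc43 genes passed. Of those 9, Slc38a8 and Slc38a11 lay under the array median on every adult array. Slc38a11 had 2.76 to 2.99 in testes, and 3.48 and 3.40 in wild-type ovaries.

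The genes furthest above wild-type ovary in testis were Slc6a21 and Slc6a16, orphan Slc6 genes whose substrates are not established. Slc6a21 had log2 levels of 10.77, 10.85 and 10.89 in testes, against 4.18 and 4.09 in wild-type ovaries, a difference of 6.70 ± 0.15 (limma adjusted p = 1.16e-10). Slc6a16 had 9.19, 9.44 and 9.37 in testes, and 4.25 and 4.16 in wild-type ovaries (5.12 ± 0.20, limma adjusted p = 4.05e-09). Slc36a3, a member of the Slc36 family, had 8.44, 7.93 and 8.08 in testes, and 4.02 and 5.59 in wild-type ovaries (3.34 ± 0.38, limma adjusted p = 2.11e-05). All 3 stood clear of the ovary levels in every testis. Slc38a9, the lysosomal arginine sensor of the mTORC1 pathway, had 8.66, 8.52 and 8.41 in testes, and 6.40 and 6.59 in wild-type ovaries (2.04 ± 0.14, limma adjusted p = 3.45e-07). Its other probe set went the opposite way, with 5.45, 5.27 and 5.21 in testes, and 5.52 and 5.67 in wild-type ovaries. Slc1a2, the main glutamate carrier of brain astrocytes, had 6.17, 6.38 and 6.31 in testes, and 4.51 and 4.54 in wild-type ovaries (1.76 ± 0.13, limma adjusted p = 8.42e-07). Spermatid markers moved the same way, with summed levels of 23030 to 25030 in testes and 170.4 to 171.8 in wild-type ovaries; their part in these results was not tested.

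The genes furthest below wild-type ovary in testis were Slc38a3, Slc38a1, Slc43a3, Slc6a9 and Slc38a2. Slc38a3 had 3.91, 4.04 and 3.87 in testes, and 9.24 and 6.94 in wild-type ovaries (-4.15 ± 0.50, limma adjusted p = 3.42e-05). Slc38a1 had 4.14, 4.29 and 5.02 in testes, and 8.48 and 8.35 in wild-type ovaries (-3.94 ± 0.27, limma adjusted p = 4.02e-07). Slc38a2 had 7.55, 7.52 and 7.49 in testes, and 10.00 and 9.87 in wild-type ovaries (-2.42 ± 0.10, limma adjusted p = 5.06e-09). None of these groups overlapped. Over all 64 genes, every testis stood above both wild-type ovaries in 10 genes (28.5% of all genes did) and below both in 29 (45.4% of all genes did). Slc43a3, known as a carrier of purine bases rather than amino acids, had 5.39, 5.09 and 5.14 in testes, and 8.47 and 8.74 in wild-type ovaries (-3.40 ± 0.19, limma adjusted p = 6.90e-08). Slc6a9 had 6.04, 5.99 and 5.97 in testes, and 9.11 and 8.10 in wild-type ovaries (-2.60 ± 0.23, limma adjusted p = 3.16e-06). These 10 genes passed without each adult array in turn. Among the heavy and light chains, Slc3a2 was lower in testis by -0.78 ± 0.14, Slc7a8 by -1.66 ± 0.23 and Slc7a7 by -0.70 ± 0.24, while Slc7a5, Slc7a6, Slc7a9, Slc7a10, Slc7a11 and Slc3a1 did not pass. Without wild-type ovary 2 the difference of Slc7a7 was -0.22 and did not pass, and without wild-type ovary 1 it was -1.19.

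Mutant ovaries were also set against testes directly. Of the 64 genes, 35 passed, where 61.8% of all genes did: 27 were higher in mutant ovary (37.5% of all genes were) and 8 lower (24.3% of all genes were). The median difference was 0.25, against 0.14 for all genes. Every mutant ovary stood above every testis in 32 genes (42.8% of all genes did) and below every testis in 11 (26.7% of all genes did). Slc43a3 had 8.47, 9.10 and 8.84 in mutant ovaries, and 5.39, 5.09 and 5.14 in testes (3.60 ± 0.17, limma adjusted p = 1.47e-08). Slc38a1 was 3.14 ± 0.24 higher in mutant ovaries, Slc6a9 2.58 ± 0.21, Slc1a4 2.50 ± 0.17 and Slc38a2 2.46 ± 0.09 (the largest limma adjusted p of the 4 was 1.12e-06). Their mutant levels, given above, all lay above the testis levels. The lowest were Slc6a21 with a difference of -6.95 ± 0.13, Slc6a16 with -4.90 ± 0.18, Slc36a3 with -3.80 ± 0.34, Slc1a2 with -1.95 ± 0.12 and Slc38a9 with -1.73 ± 0.12 (the largest limma adjusted p was 2.58e-06). The other probe set of Slc38a9 went the opposite way, with 6.11, 5.93 and 5.71 in mutant ovaries, and 5.45, 5.27 and 5.21 in testes. In mutant ovaries Slc6a21 had 4.02, 3.62 and 4.01 and Slc6a16 had 4.68, 4.61 and 4.00. Neither passed between mutant and wild-type ovary, and 0 of 10 spermatid markers stood above the array median in any mutant ovary.

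The differences of mutant ovary and of testis from wild-type ovary share the same 2 wild-type ovaries, and both comparisons of mutant ovary share its 3 arrays, so their values are given side by side and their overlap is no result. Slc6a14 was higher in testis than in wild-type ovary as well, with 5.38, 5.35 and 5.41, and its level ran from mutant ovary over testis to wild-type ovary with no overlap. Slc1a4, Slc6a8 and Slc7a2 were higher in mutant ovary but lower in testis, with Slc1a4 at 4.50, 4.45 and 4.70 and Slc7a2 at 6.09, 6.28 and 6.19 in testes. Slc1a6, Slc6a4, Slc7a1, Slc7a4 and Slc7a6 were higher in mutant ovary and did not pass in testis. Slc7a1 had 7.45, 7.22 and 7.35 in testes, overlapping the wild-type ovaries. The 5 genes lower in mutant ovary had testis differences of -4.15 (Slc38a3), -2.27 (Slc6a15), -0.97 (Slc38a10), -0.70 (Slc7a7) and -0.53 (Slc38a11) from the same wild-type ovaries. Between mutant ovary and testis, Slc38a3, Slc38a11 and Slc7a7 did not pass. Sertoli markers were high in the mutant ovaries, where their summed level over 9 genes was 5351 to 5986, against 1388 to 1500 in testes and 376.6 to 538.8 in wild-type ovaries; their part in these patterns was not tested.

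At P3 none of the 63 transporter genes passed between KO and wild-type ovary, where 0.324% of all genes did (59 genes). With an unadjusted p under 0.05 there were 7 genes: Slc1a2, Slc43a2, Slc6a14, Slc6a18, Slc6a4, Slc6a6 and Slc6a7, against 9.53% of all genes. The KO pools lay above both wild-type pools in 9 genes (19.3% of all genes did) and below both in 13 (19.7% of all genes did), and the median difference was -0.008, against -0.005 for all genes. Differences at P3 are of log2(signal + 16), which understates the change of dim genes.

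The 4 genes with the smallest p had the following signals. Slc43a2, the carrier LAT4 for large neutral amino acids, had 260.2 and 330.9 in KO pools, and 638.4 and 662.6 in wild-type pools (-1.11 ± 0.21, limma adjusted p = 0.117). Slc6a7, the proline carrier, had 193.4 and 185.2 in KO pools, and 397.2 and 448.3 in wild-type pools (-1.09 ± 0.23, limma adjusted p = 0.144). In both the KO pools lay below both wild-type pools, and neither difference passed. Slc6a14 had 97.1 and 113.7 in KO pools, and 38.3 and 31.0 in wild-type pools (1.26 ± 0.35, limma adjusted p = 0.272). Slc6a18, a kidney carrier of neutral amino acids, had 72.4 and 49.0 in KO pools, and 23.7 and 2.8 in wild-type pools (1.47 ± 0.48, limma adjusted p = 0.370). All P3 signals of Slc6a14 and Slc6a18 lay under the array median. Other probe sets of Slc43a2 had differences of -0.68 and -0.11, and the other probe set of Slc6a14 had 0.48. In that probe set of Slc6a14 the groups overlapped, with 22.6 and 68.2 in KO pools, and 57.9 and 6.5 in wild-type pools.

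Of the 14 genes that changed in adults, 13 were measured at P3, and the P3 pools were apart in the same direction for Slc1a4, Slc6a14 and Slc6a4 and in the opposite direction for Slc38a10 and Slc7a6. Over all genes at P3, 19.3% had KO pools above and 19.7% below both wild-type pools. Slc1a4 had 1176 and 1161 in KO pools, and 972.5 and 1022 in wild-type pools (0.23 ± 0.13, limma adjusted p = 0.703). Slc6a4 had 195.2 and 341.3 in KO pools, against 10.1 and 120.7 in wild-type pools, with a wide spread (2.20 ± 0.77, limma adjusted p = 0.417). Slc7a1 had 754.3 and 1229 in KO pools, and 1022 and 1294 in wild-type pools, and Slc7a2 had 782.3 and 670.1 in KO pools, and 636.4 and 701.9 in wild-type pools. Both pairs overlapped. Slc38a3, which fell in adult mutants, had 60.9 and 95.4 in KO pools, and 83.5 and 96.2 in wild-type pools (-0.19 ± 0.36), all under the array median. At this age the oocyte markers summed to 89480 to 93510 in KO pools and 108200 to 120000 in wild-type pools, and granulosa markers to 4286 to 5119 in KO pools and 8447 to 9737 in wild-type pools. Slc38a10, Slc38a2 and Slc6a9 gave high signals, with Slc38a2 at 4727 and 4743 in KO pools, and 3525 and 4432 in wild-type pools (0.26 ± 0.14). Slc6a6 had 120.3 and 50.0 in KO pools, and 263.7 and 146.4 in wild-type pools (-1.17 ± 0.47, limma adjusted p = 0.518), but its other probe sets had differences of 0.05, 0.43 and -1.31. The heavy and light chains Slc3a1, Slc3a2, Slc7a5, Slc7a6, Slc7a7, Slc7a8, Slc7a9, Slc7a10 and Slc7a11 had differences of -0.52 to 0.27. Slc7a5 had 1190 and 889.8 in KO pools, and 1526 and 1239 in wild-type pools (-0.41 ± 0.19, limma adjusted p = 0.599).

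**Figure D4:**
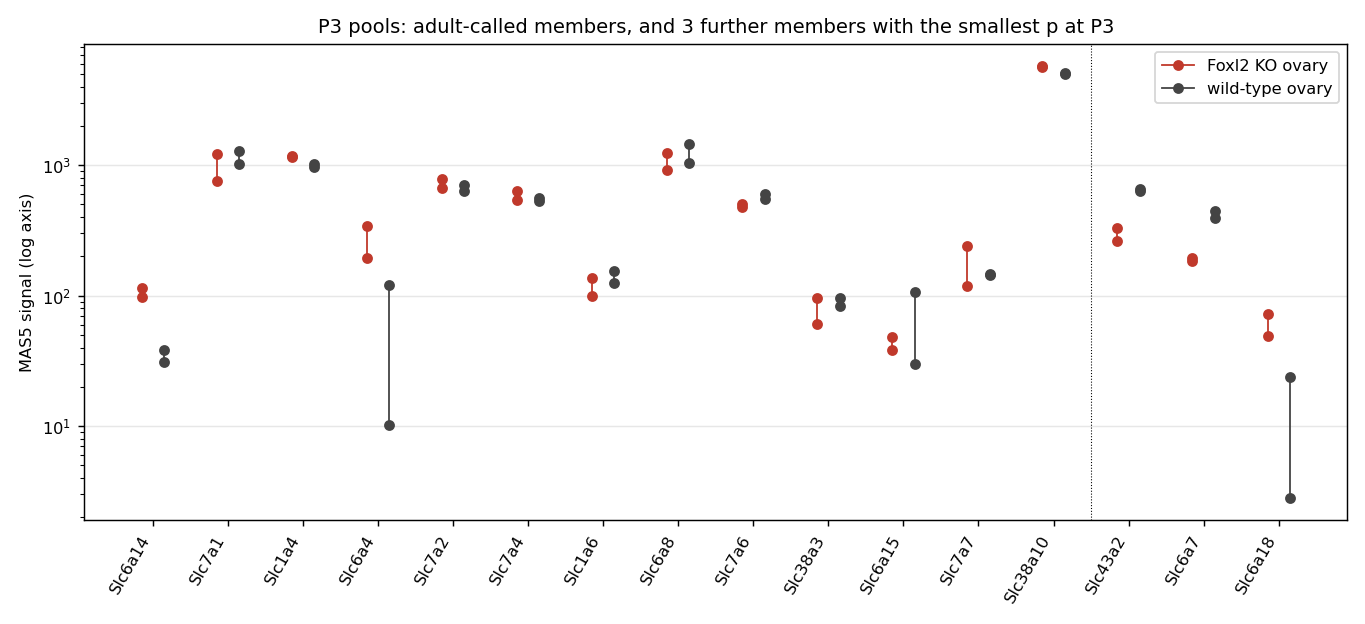
P3 signal (vertical axis, log scale) in 2 KO pools (red) and 2 wild-type pools (grey), joined by a line per group, for the 13 genes called in adult mutant ovary (left of the dotted line) and the 3 further genes with the smallest p at P3 (right). Slc1a4, Slc6a4, Slc6a14, Slc38a10, Slc7a6, Slc43a2, Slc6a7 and Slc6a18 have groups apart, and none of the 16 genes passed the test.

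Probe brightness differs between probe sets, so levels of different genes are not ranked here; levels against the array medians are given as a description of signal. On the adult arrays 18 of 64 genes lay above the array median on every array and 27 below it on every array, of which Slc38a11 and Slc6a15 were among the 14 calls. At P3 20 of 63 lay above it on every array and 35 below.

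Genes of the amino acid response and of serine synthesis were examined beside the transporters. The response element was not searched for in these genes as a set. In adult mutant against wild-type ovary 7 of 17 measured genes rose and 2 fell (9.55% of all genes rose and 6.66% fell), with a median difference of 0.49, against -0.025 for all genes. Psat1 and Phgdh, enzymes that make serine, rose by 2.10 ± 0.16 (limma adjusted p = 1.49e-05) and 1.20 ± 0.14 (limma adjusted p = 0.00025). Sesn2, a leucine sensor, rose by 1.87 ± 0.29, Gpt2, an alanine transaminase, by 1.13 ± 0.29, Asns, asparagine synthetase, by 0.91 ± 0.16, Mthfd2, a mitochondrial folate enzyme, by 0.82 ± 0.13, and Ddit4, an mTORC1 inhibitor, by 0.66 ± 0.20. Without 1 array at a time, the call of Gpt2 was lost in 3 of 8 fits and that of Ddit4 in 6 of 8, both without wild-type ovary 2 among others. The mitochondrial serine enzyme Shmt2 fell by 1.07 ± 0.14 and the transcription factor Cebpb fell by 0.73 ± 0.17, the second call being lost without wild-type ovary 2 or mutant ovary 1. Atf4 itself had a difference of -0.32 ± 0.15 (limma adjusted p = 0.184), Trib3 of 0.49 ± 0.20 (limma adjusted p = 0.127) and Chac1 of -0.17 ± 0.13 (limma adjusted p = 0.435). Without wild-type ovary 2, 5 of the 17 rose and 1 fell. In testis against wild-type ovary 2 of the 17 rose and 9 fell (24.4% of all genes were higher and 35.9% lower). At P3 Phgdh alone passed, with mean signals of 9389 in KO and 4768 in wild-type pools (0.97 ± 0.11, limma adjusted p = 0.0389), and that call was lost without any 1 of the 4 arrays.

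**Figure D5:**
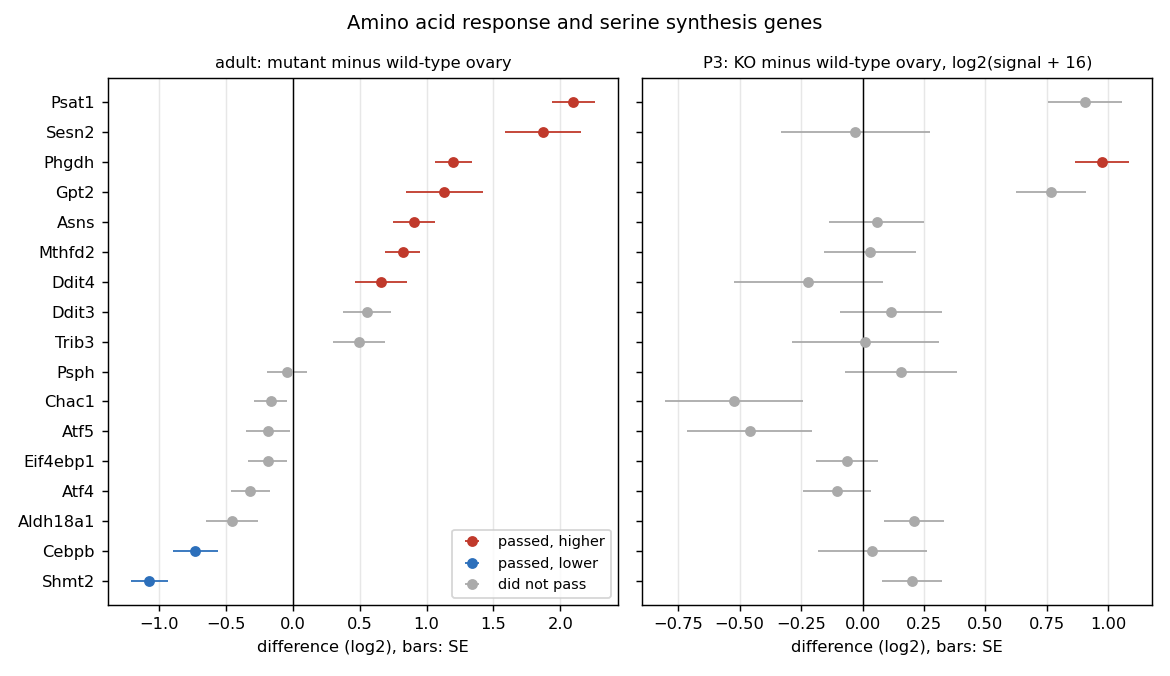
Log2 difference with its standard error (horizontal axis) for 17 genes of the amino acid response and serine synthesis, in adult mutant minus wild-type ovary (left) and P3 KO minus wild-type ovary (right); colour marks an adjusted p under 0.05. In adults 7 genes rose and 2 fell, and at P3 Phgdh is the coloured point.

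Other genes of amino acid sensing and metabolism were counted in adult mutant ovaries against the same 9.55% of all genes higher and 6.66% lower. Of 30 genes of amino acid sensing at the lysosome, 5 rose and 1 fell. Rragb and Rragd, Rag GTPases that bring mTORC1 to the lysosome, rose by 2.03 ± 0.15 and 0.87 ± 0.19, and Sesn1, a sestrin, rose by 1.20 ± 0.13. Rragd also passed at P3, with mean signals of 2871 in KO and 1030 in wild-type pools (1.48 ± 0.17, limma adjusted p = 0.0389), a call lost without any 1 of the 4 arrays. Of 18 arginine, polyamine and creatine enzymes, 2 rose and 3 fell; without wild-type ovary 2 these were 4 and 4, and the fall of Nos3 was called in 1 of 8 fits that left out 1 array. Gatm, which makes the creatine precursor from arginine, rose by 3.17 ± 0.16 (mean log2 level 11.15 in mutant ovaries and 7.98 in wild-type ovaries, limma adjusted p = 1.01e-06), beside the rise of the creatine carrier Slc6a8. Nos2, which makes nitric oxide from arginine, fell by 1.96 ± 0.33. Of 10 branched-chain enzymes, 3 rose and 1 fell: the mitochondrial transaminase Bcat2 rose by 1.11 ± 0.14 and the cytosolic one, Bcat1, fell by 2.93 ± 0.26. In testis all 10 were lower than in wild-type ovary, as were 35.9% of all genes. Of 13 glutamate and glutamine enzymes, 2 rose, glutamine synthetase Glul by 0.76 ± 0.13 among them, and 2 fell. Of 14 glycine, cysteine and taurine enzymes 3 rose and 2 fell, Cbs and Ado, and 0 fell without mutant ovary 2, mutant ovary 3 or any 1 testis. At P3 Bhmt passed alone (2.31 ± 0.25), a call lost without any 1 of the 4 arrays. Of 22 other amino acid and peptide carriers 3 rose and 1 fell, and none of 6 partners and regulators of the transporters passed.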

How the data were processed

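Adult values are the log2 levels the authors deposited, made by RMA (the submitters' processing notes name Affymetrix Expression Console). P3 values are MAS5 signal intensities per probe set, deposited by the authors on a linear scale. A label of these samples names a CodeLink protocol although the probe names are Affymetrix, and no source used here gives software versions. Adult arrays carried 300 ng and P3 arrays 1 µg of RNA. Probe sets annotated to 1 gene were kept (21789 of 35557 adult, 34958 of 45101 P3), and each gene was read from its probe set with the highest mean. P3 signals were turned into log2(signal + 16). Differences were tested with limma 3.58.1 in R 4.3.3 (lmFit, eBayes with trend, two-sided), the 8 adult arrays in 1 fit and the 4 P3 arrays in another, with Benjamini-Hochberg adjustment over all genes of the platform. A gene passed at an adjusted p under 0.05, and errors are standard errors of the fit. Adult replicates are single animals and P3 replicates are pools. The p-values rest on a spread shared by all groups of a fit and adjusted over genes by eBayes. Comparisons of adult ovaries therefore also draw on the spread of the testes. Named were the genes called between mutant and wild-type ovary, the 5 largest calls each way in the testis comparisons, the 4 smallest p at P3, the highest mean of each family, and Slc3a1, Slc3a2, Slc7a5 to Slc7a11, Slc38a1 to Slc38a3, Slc6a9 and Slc6a6; Slc7a3 was added after its values were seen. The transporter genes, pathway lists and marker lists were chosen with earlier results of these data known. Same-numbered arrays did not deviate together (correlations of -0.00279 to 0.079), so replicate numbers were not taken as pairs. The fits were tested on simulated data. Of 100 genes changed by 1 log2 unit, 92 were recovered for adult mutant against wild-type ovary and 43 at P3. For changes of 2 log2 units these were 100 and 89. Alternatives were other normalizations, pseudocounts, probe set choices, filters, fits and arrays left out.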

Additional observations from a re-analysis of the deposited data

Results flagged for a closer look

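In 3 genes every adult mutant ovary lay on one side of the wild-type ovaries and every P3 KO pool on the opposite side of the wild-type pools. Slc38a10 had a difference of -0.47 in adults and 0.17 at P3, where its other 6 probe sets had -0.22 to 0.33 and 4 of them were below 0. Slc7a6 had 0.57 in adults and -0.21 at P3. Slc7a8 had 0.50 in adults and -0.52 at P3. In 7 genes (Slc1a2, Slc1a4, Slc38a1, Slc38a6, Slc6a14, Slc6a4 and Slc6a6) the groups were apart in the same direction at both ages. At P3 the difference of Slc38a1 was -0.05 and its other probe set had 0.21. All P3 signals of Slc1a2, Slc6a14 and Slc6a6 lay under the array median. The other probe sets of Slc1a2 had -0.25 to 1.13. Other probe sets had -0.32 and 0.44 for Slc1a4, -0.99 for Slc38a6 and 0.48 for Slc6a14, and those of Slc6a6 are given above. Over all genes, groups were apart upwards in 19.3% and downwards in 20.6% in adults, and in 19.3% and 19.7% at P3. No share of all genes apart at both ages is given here, so the counts of 3 and 7 genes are descriptions only. The difference between the ages was not tested, and age, array platform, RNA amount and pooling cannot be told apart.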

How the results depend on the processing

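Groups of 2 or 3 arrays limit all counts. Among named genes past the threshold, 597 of 648 alternative values stayed past it in the same direction, 51 no longer passed and 0 reversed; among those not past it, 549 of 614 stayed so, 33 passed and 32 changed sign. The cause was not tested. A filter kept genes whose mean level lay above the median of all genes, 30 of 64 transporter genes and 9969 of 19938 genes in adults. At P3 it kept 24 of 63 and 9097 of 18194, so its counts are of these smaller sets. Between mutant and wild-type ovary the filter gave 3 lower. There, a 2-fold minimum gave 5 higher, 3 lower and 1119 over all genes. A fit of these 2 groups alone gave 3 lower and 1731 over all genes. Between testis and wild-type ovary, the filter gave 6 higher and 8000 of its 9969 genes. A 2-fold minimum gave 6 higher, 13 lower and 6909 over all genes. Between mutant ovary and testis a 2-fold minimum gave 7181 over all genes. At P3 the mean of probe sets gave 22 over all genes, the filter 1 lower and 186 of its 9097 genes, and no trend 0 over all genes. Leaving out 1 array gave 7 to 12 higher, 3 to 6 lower and 2540 to 3760 over all genes for mutant against wild-type ovary, with 3 lower without mutant ovary 1. It gave 8 to 11, 20 to 27 and 10962 to 12082 for testis against wild-type ovary, and 24 to 28, 7 to 10 and 11369 to 12811 for mutant ovary against testis. At P3 it gave 0 members either way and 0 to 22 over all genes.

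With the replicate number as a block, mutant against wild-type ovary gave 9 higher, 6 lower and 2674 over all genes, testis against wild-type ovary 9, 22 and 11433, mutant ovary against testis 27, 8 and 12136, and P3 0, 1 (Slc43a2) and 305.

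These values changed sign. In mutant minus wild-type ovary, Slc3a1 was 0.040 without mutant ovary 3 (lowest without 1 array -0.149). Slc7a9 was 0.022 without wild-type ovary 1, 0.041 without mutant ovary 1 or 3 (lowest -0.146) and 0.016 with the replicate block. Slc7a10 was 0.233 without wild-type ovary 2 (lowest -0.249), 0.013 without mutant ovary 2, 0.012 without mutant ovary 3 and 0.011 with the block. Slc38a2 was -0.013 without wild-type ovary 2 (highest 0.111) and -0.011 with quantile normalization. Slc6a9 was 0.483 without wild-type ovary 1 (lowest -0.525), 0.022 without mutant ovary 3 and 0.008 with the block. In testis minus wild-type ovary, Slc7a6 was -0.025 without wild-type ovary 2 (highest 0.390) and -0.120 with quantile normalization, Slc7a9 was 0.039 with centred arrays, and Slc7a10 and Slc6a6 were both 0.067 without wild-type ovary 2 (lowest -0.415 and -1.574). In mutant ovary minus testis, Slc7a9 was -0.103 without mutant ovary 2 (highest 0.084) and -0.070 with centred arrays, and Slc7a11 was 0.047 without mutant ovary 3 (lowest -0.210). In P3 KO minus wild-type ovary, Slc3a1 was -0.595 without KO pool 2 (highest 1.135), Slc7a7 -0.252 without KO pool 1 (highest 0.673) and -0.380 with the mean of probe sets, Slc7a9 0.042 without KO pool 1 (lowest -0.353) and Slc7a10 -0.104 without wild-type pool 1 (highest 0.252). Slc7a11 was -0.337 without wild-type pool 1 (highest 0.341), -0.145 without KO pool 2 and -0.001 with a pseudocount of 64, Slc38a1 was 0.079 with the mean of probe sets, and Slc38a3 was 0.076 without KO pool 1 (lowest -0.458).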
